A study of Mus musculus with 24 samples.

Results

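Lens fiber cells of the mouse were compared between E16.5 and E14.5, where E is the embryonic day. The 3 libraries labelled E16.5 fiber were set against the 3 labelled E14.5 fiber, which makes 6 of the 24 libraries of the series, and all genes were used. The animals were CD1 mice, an outbred albino stock, and no group carries an allele or a treatment. Fiber tissue was dissected away from the lens epithelium under a microscope, so a library can hold RNA of any cell left on the dissected piece. Each group has 3 biological replicates. The sources used here do not say if a replicate pools animals, so the p-values below measure only the spread between samples. That spread was estimated from all 24 libraries of the series. The rest of the series holds fiber at E18.5 and P0.5 (P is the day after birth) and epithelium at all 4 stages.

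The vertebrate lens grows by adding fiber cells. Epithelial cells near the lens equator leave the cell cycle, elongate, fill with crystallins and join the fiber mass, where they build a membrane skeleton with beaded filaments and wide junctions. Later they degrade their nuclei and other organelles, which clears the light path. Between the stages compared here the mouse lens has passed from its first set of fibers, the primary fibers that close the lens vesicle, to the continuous addition of secondary fibers at the equator.

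The total count per library was 13658834 to 18050763 at E16.5 and 13010174 to 18455980 at E14.5. Levels are given as CPM, the counts relative to the TMM-scaled library size, and a gene is said to have risen or fallen when edgeR's quasi-likelihood test gave an adjusted p under 0.05 over all 12427 genes tested and the change was at least 2-fold. Crystallin genes took 27.1% ± 2.59 of the counts at E16.5 and 24.5% ± 1.19 at E14.5 (SD, n = 3 each), and the ribosomal RNA precursor Rn45s took 6.41% to 16.3% at E16.5 and 3.98% to 9.12% at E14.5. The fiber label was checked against its defining markers. Crygd, a gamma crystallin, had 13757, 12960 and 13855 CPM at E16.5 and 8386, 9574 and 8877 CPM at E14.5, and Mip, the main water channel of fibers, had 16019, 17000 and 15111 CPM at E16.5 and 13767, 15295 and 13519 CPM at E14.5. On principal components of the 6 libraries, the first (49.6% of the variance) separated the stages and the second (18.1%) set E16.5 replicate 1 apart. Cdh5, the adhesion protein of endothelial junctions, was highest in that library, with 4.66, 0.75 and 0.65 CPM in E16.5 replicates 1 to 3, and 1.26, 3.36 and 1.35 CPM in E14.5 replicates 1 to 3. Without that library, 33 of the 38 gene lists described below had the same counts of risen and fallen members, and the counts of the other 5 are given with and without it.

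Fiber of E16.5 differed from fiber of E14.5 in 381 genes. Of the 12427 genes tested, 181 (1.46%) rose and 200 (1.61%) fell. Without E16.5 replicate 1 the counts were 171 and 205, and 160 of the risen and 164 of the fallen genes were shared with the full comparison. The median log2 change over all genes tested was -0.01. The 2 directions differed in level: 62 of the 181 risen genes and 19 of the 200 fallen genes had a mean of 20 CPM or more in the group in which they were higher, while 57 risen and 134 fallen genes stayed under 5 CPM in that group. Changes of at least 4-fold were found for 33 risen and 34 fallen genes. Among the risen genes, the 3 E16.5 libraries all lay above the 3 E14.5 libraries for 180 of 181, and among the fallen genes all below for 191 of 200. Over all genes tested this was so for 18.2% upward and 17.0% downward. Fewer cells of a type and less RNA per cell cannot be told apart in bulk tissue, and this holds for all changes below.

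**Figure D1:**
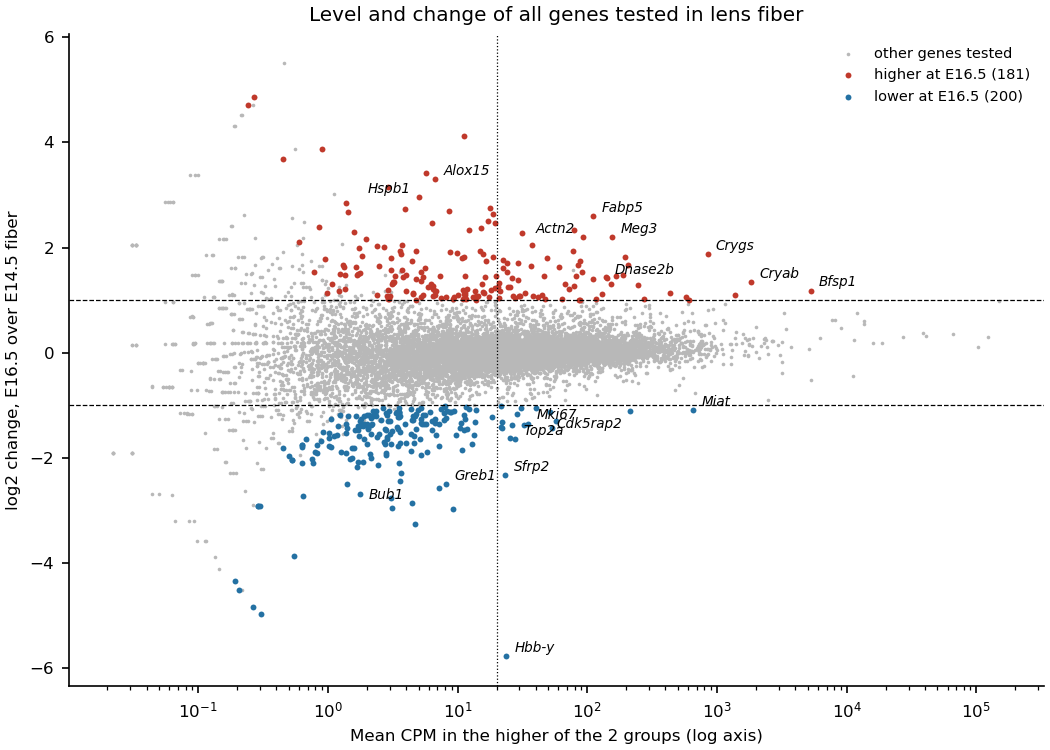
Mean CPM in the higher of E16.5 and E14.5 fiber (x, log axis) against the log2 change of E16.5 over E14.5 fiber (y), 1 point per gene tested. Red points are the 181 genes that rose, blue points the 200 that fell, grey points the others; dashed lines mark 2-fold and the dotted line marks 20 CPM, right of which 62 risen and 19 fallen genes lie.

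Crystallins, the refractive proteins that fill the fiber, were higher as a group, with 3 of 16 risen against 1.46% of all genes, none fallen and a median log2 change of 0.51 against -0.01 over all genes. The 3 that rose were Crygs (gamma-S crystallin), Crybb2 (beta-B2 crystallin) and Cryab (alpha-B crystallin, a small heat shock protein). Crygs had 828.8, 773.1 and 934.5 CPM at E16.5, against 226.6, 233.4 and 227.3 CPM at E14.5. Its log2 change was 1.88 ± 0.21 (SE, edgeR adjusted p = 1.01e-06). Cryab had 1771, 1892 and 1799 CPM at E16.5, against 662.2, 727.2 and 771.5 CPM at E14.5, a log2 change of 1.34 ± 0.15 (SE, edgeR adjusted p = 6.9e-07). Crybb2 was still low, with 17.0, 15.4 and 25.5 CPM at E16.5, against 3.25, 3.55 and 3.63 CPM at E14.5, a log2 change of 2.47 ± 0.53 (SE, edgeR adjusted p = 0.00204). In all 3 genes the E16.5 and E14.5 libraries did not overlap.

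The other 13 crystallins did not pass. Among them, Crygb had a log2 change of 0.75, Crygc of 0.63 and Crygd of 0.60, all under 2-fold with an edgeR adjusted p under 0.05, and the alpha crystallin Cryaa, with 129700, 122350 and 119570 CPM at E16.5 and 97971, 109120 and 96816 CPM at E14.5, had a log2 change of 0.29 ± 0.13 (SE, edgeR adjusted p = 0.128). The fitted log2 change was above 0 for all 16 crystallins, also without E16.5 replicate 1 (3 risen, median 0.47). When libraries were scaled by total count alone, which lowers the median of all genes to -0.24, the change was again above 0 for all 16, 3 rose and the crystallin median was 0.29. Gamma crystallin genes are near-identical in sequence, so reads may be shared among Cryga to Crygf and the values of single members are uncertain.

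Genes of the fiber membrane and cytoskeleton were higher by a median log2 change of 0.31, with 3 of 25 risen, against 1.46% of all genes, and none fallen. Bfsp1, which encodes filensin of the beaded filament, had 5054, 5486 and 5319 CPM at E16.5, against 2089, 2607 and 2286 CPM at E14.5, a log2 change of 1.18 ± 0.14 (SE, edgeR adjusted p = 1.92e-06). Lctl, a klotho-related membrane protein, had 92.6, 93.7 and 78.6 CPM at E16.5, against 24.1, 31.7 and 23.3 CPM at E14.5, a log2 change of 1.75 ± 0.16 (SE, edgeR adjusted p = 3.85e-08). Hspb1, a small heat shock protein, had 5.06, 3.82 and 6.35 CPM at E16.5 and 0.53, 0.75 and 0.67 CPM at E14.5. The groups did not overlap in any of these genes. Bfsp2, the partner of filensin in the beaded filament, had a log2 change of 0.82, and the junction and membrane proteins Gja3 (0.26), Lim2 (0.21) and Mip (0.18) had smaller ones, none at 2-fold. Without E16.5 replicate 1 the count was again 3 of 25. Scaled by total count alone, the list median was 0.07 and 15 of 25 genes were above 0, against 24 in the main result. Under that scaling 2 rose, and Bfsp1 had a log2 change of 0.95 and did not reach 2-fold.

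Start regions are shown for 5 genes that passed, so that the motifs counted below can be seen in place: Crygs and Bfsp1 from the risen structural genes, and Top2a, Mki67 and Cdc20 from the fallen cell cycle genes described further on. Each sequence comes from RefSeq (GRCm38.p6) and covers 250 bases before to 50 bases after the start. Capitals mark TATAAA (the TATA box), TGCTGA (a half-site of MAF factors), CCAAT (the CCAAT box) and TTTGAA (the cell cycle homology region, CHR), on either strand, and no marked stretches overlap. All 5 genes lie on the minus strand and are printed 5′ to 3′ along the gene. They are Crygs at chr16:22811361-22811660, Bfsp1 at chr2:143863124-143863423, Top2a at chr11:99024140-99024439, Mki67 at chr7:135716330-135716629 and Cdc20 at chr4:118437294-118437593.
Crygs: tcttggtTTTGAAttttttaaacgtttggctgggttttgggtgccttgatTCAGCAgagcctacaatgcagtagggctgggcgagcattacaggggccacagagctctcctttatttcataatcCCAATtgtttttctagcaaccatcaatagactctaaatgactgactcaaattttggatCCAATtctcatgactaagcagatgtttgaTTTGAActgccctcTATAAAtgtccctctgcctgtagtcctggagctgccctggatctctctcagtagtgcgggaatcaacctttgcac
Bfsp1: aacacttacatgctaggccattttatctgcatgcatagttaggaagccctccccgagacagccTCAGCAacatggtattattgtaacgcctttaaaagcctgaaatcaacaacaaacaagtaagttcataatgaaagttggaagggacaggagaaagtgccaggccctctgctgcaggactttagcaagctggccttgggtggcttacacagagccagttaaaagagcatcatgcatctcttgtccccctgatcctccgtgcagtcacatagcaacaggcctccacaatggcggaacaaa
Top2a: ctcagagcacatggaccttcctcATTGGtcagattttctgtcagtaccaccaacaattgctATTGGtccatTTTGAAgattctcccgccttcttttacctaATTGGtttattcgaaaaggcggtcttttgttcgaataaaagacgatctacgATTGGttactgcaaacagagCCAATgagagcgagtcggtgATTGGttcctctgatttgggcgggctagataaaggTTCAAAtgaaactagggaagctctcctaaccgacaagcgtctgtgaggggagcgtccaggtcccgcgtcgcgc
Mki67: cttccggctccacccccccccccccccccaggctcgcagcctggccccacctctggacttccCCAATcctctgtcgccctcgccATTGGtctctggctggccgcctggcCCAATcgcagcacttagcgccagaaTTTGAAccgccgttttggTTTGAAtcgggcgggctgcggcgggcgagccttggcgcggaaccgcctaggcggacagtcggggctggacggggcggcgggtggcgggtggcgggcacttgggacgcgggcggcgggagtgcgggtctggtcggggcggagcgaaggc
Cdc20: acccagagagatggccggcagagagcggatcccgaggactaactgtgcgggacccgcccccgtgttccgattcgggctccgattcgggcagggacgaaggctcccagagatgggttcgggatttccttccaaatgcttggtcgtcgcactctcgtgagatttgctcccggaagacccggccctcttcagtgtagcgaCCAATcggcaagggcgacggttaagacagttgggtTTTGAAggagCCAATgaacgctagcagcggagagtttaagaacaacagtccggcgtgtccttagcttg
The Crygs region holds TATAAA beginning 25 bases before the start, with TTTGAA 39 bases and CCAAT 68 bases before it, and the Bfsp1 region holds only the MAF half-site among the 4 motifs. The 3 cell cycle regions hold 6 CCAAT boxes in Top2a, 3 in Mki67 and 2 in Cdc20, with 2, 2 and 1 TTTGAA stretches, and none has TATAAA or TGCTGA. Of the 19 proliferation genes that fell, 16 had 1 promoter each in the table, of which 14 (87.5%) held CCAAT, 8 (50%) TTTGAA, 1 (6.25%) TGCTGA and none TATAAA. Over all 32851 promoters in the table the shares were 37.4% for CCAAT, 17.9% for TTTGAA, 19.5% for TGCTGA and 13.6% for TATAAA. Of the 6 crystallin and fiber membrane genes that rose, 5 had a promoter, of which 3 (60%) held TGCTGA, 2 (40%) TTTGAA, 1 (20%) CCAAT and 1 (20%) TATAAA. A match is a run of letters, and binding was not measured.

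Genes of organelle loss and autophagy included 3 risen and 1 fallen of 27 tested, against 1.46% and 1.61% of all genes, with a median log2 change of 0.16 that turned to -0.07 with scaling by total count. Dnase2b, the lysosomal nuclease that degrades DNA in fiber nuclei, had 125.4, 158.8 and 139.3 CPM at E16.5, against 49.5, 54.9 and 54.8 CPM at E14.5, a log2 change of 1.42 ± 0.15 (SE, edgeR adjusted p = 3.9e-07). Trex1, a cytosolic DNA exonuclease, had 21.9, 23.4 and 27.4 CPM at E16.5 and 7.03, 9.72 and 8.68 CPM at E14.5, a log2 change of 1.53. Alox15, a lipoxygenase that oxidises membrane lipids, had 7.04, 5.24 and 7.84 CPM at E16.5 and 0.46, 1.21 and 0.42 CPM at E14.5, a log2 change of 3.30. The groups did not overlap in these 3 genes. The fallen member was Cdk1, the mitotic kinase, with 2.08, 0.83 and 1.77 CPM at E16.5 and 4.71, 4.11 and 4.97 CPM at E14.5. Without E16.5 replicate 1 the counts were again 3 and 1. Autophagy genes had smaller changes, none at 2-fold: Gabarapl1 had a log2 change of 0.62, Sqstm1 of 0.51 and Map1lc3b of 0.24, and Fyco1, an autophagosome transport protein, had 78.3, 83.6 and 74.5 CPM at E16.5 and 78.0, 79.2 and 74.4 CPM at E14.5.

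Few lens transcription factors passed, with 1 of 31 risen, 1 fallen and a median log2 change of 0.07 (-0.16 with scaling by total count). Mafk, a small MAF partner, had 12.7, 10.97 and 11.3 CPM at E16.5 and 5.97, 5.14 and 5.90 CPM at E14.5, a log2 change of 1.03 that dropped under 2-fold without E16.5 replicate 1 (0.97), without E14.5 replicate 2 (0.97) and with scaling by total count (0.80). Sall4, a zinc finger factor of embryonic cells, had 2.58, 2.41 and 2.43 CPM at E16.5 and 6.30, 4.77 and 5.65 CPM at E14.5, a log2 change of -1.18. Factors that drive crystallin genes had changes under 2-fold, with log2 values of 0.27 for Maf, 0.28 for Hsf4, 0.22 for Sox1 and 0.16 for Prox1. These counts of 1 and 1 lie close to the shares over all genes. Among RNA-binding proteins of the lens none of 18 passed, and Tdrd7, a granule protein of fibers, had a log2 change of 0.28.

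Cell cycle genes were lower at E16.5. Of 30 proliferation genes, 19 fell and none rose, against 1.61% fallen over all genes, and the median log2 change was -1.30. Without E16.5 replicate 1, 20 fell. Their summed level was 161.8, 143.7 and 158.6 CPM at E16.5, against 307.1, 240.4 and 316.7 CPM at E14.5, so the groups did not overlap. Top2a, the DNA topoisomerase of dividing cells, had 9.82, 7.48 and 9.80 CPM at E16.5, against 33.5, 21.1 and 29.0 CPM at E14.5, a log2 change of -1.65 ± 0.17 (SE, edgeR adjusted p = 2.02e-07). Mki67, the proliferation antigen Ki-67, had 16.6, 10.5 and 14.8 CPM at E16.5, against 39.2, 24.4 and 41.3 CPM at E14.5, a log2 change of -1.35 ± 0.17 (SE, edgeR adjusted p = 4.53e-06). The libraries of the 2 stages did not overlap in either gene.

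The fallen genes covered the cycle from replication to cell division. The mitotic checkpoint kinases Bub1 (0.89, 0.33 and 0.65 CPM at E16.5, 4.71, 4.39 and 4.30 CPM at E14.5) and Bub1b fell by 2.86 and 1.95 on the log2 scale. The kinesins of cytokinesis Kif20a and Kif23 fell by 1.86 and 1.72, the centromere proteins Cenpe and Cenpf by 1.46 and 1.31, and the cyclins Ccnb1, Ccna2 and Ccnb2 by 1.65, 1.26 and 1.18 (Ccnb1 had -2.26 without E16.5 replicate 1). Aurkb, Birc5 and Cdc20, which act in mitosis, fell by 1.55, 1.30 and 1.36. In DNA synthesis, Rrm2, a ribonucleotide reductase subunit, fell by 2.29, the replicative helicase subunits Mcm3 and Mcm6 by 1.23 and 1.34, and the licensing factor Cdc6 by 1.47. Cdc6 is low (0.50, 0.67 and 0.56 CPM at E16.5, 1.59, 1.495 and 1.77 CPM at E14.5) and lost its call when any 1 of 5 of the 6 libraries was left out, with edgeR adjusted p between 0.067 and 0.0919. Of the 11 members that did not pass, Mcm5 had a log2 change of -0.05, Rrm1 of -0.29 and Pcna of -0.61. Hells, a chromatin remodeler of replicating cells, fell by 1.35 and was the only one of 23 chromatin remodelers to pass. Cdk5rap2, a centrosome protein, had 92.2, 108.8 and 95.2 CPM at E16.5, against 210.8, 204.2 and 227.7 CPM at E14.5, and fell by 1.12 (SE 0.07, edgeR adjusted p = 1.18e-10).

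The level of these genes was low in fiber beside epithelium, where dividing cells lie. The summed level of the 30 genes in epithelium was 1972 to 2099 CPM at E16.5 and 2974 to 3188 CPM at E14.5. The summed level of the epithelial markers was 3298, 3339 and 3113 CPM in E16.5 fiber and 3306, 3167 and 3171 CPM in E14.5 fiber, ranges that overlap. In epithelium that sum was 5570 to 6244 CPM at E16.5 and 5053 to 5680 CPM at E14.5. The sum is thus not restricted to epithelium and does not measure epithelial RNA in fiber libraries. Of the 15 epithelial markers 4 had a log2 change above 0, the median was -0.20, and -0.30 without E16.5 replicate 1. With the 2-fold minimum 2 fell and none rose, against 1.61% and 1.46% of all genes. By edgeR's adjusted p alone 5 were lower and 0 higher, against 7.6% and 9.25% of all genes. Cdh1, the epithelial cadherin, had 16.8, 12.3 and 16.2 CPM at E16.5 and 32.9, 28.2 and 32.2 CPM at E14.5 (log2 change -1.05, or -0.92 and under 2-fold without E16.5 replicate 2), and Sfrp2, a secreted Wnt antagonist, had 5.46, 3.24 and 5.70 CPM at E16.5 and 31.2, 14.1 and 24.8 CPM at E14.5 (log2 change -2.32). Foxe3, the defining transcription factor of lens epithelium, had 14.9, 8.23 and 14.8 CPM at E16.5 and 24.5, 22.5 and 20.4 CPM at E14.5, a log2 change of -0.85 with an edgeR adjusted p of 0.0169, short of 2-fold. Gja1, another epithelial marker, had 16.3, 8.23 and 9.71 CPM at E16.5 and 12.4, 10.1 and 8.09 CPM at E14.5. The part of epithelial RNA in the lower level of the cell cycle genes was not tested.

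Genes of cell cycle exit did not pass in either direction (0 of 15 by edgeR's quasi-likelihood test with the 2-fold minimum; 4 had an adjusted p under 0.05 without it, 1 higher and 3 lower). Cdkn1c, the p57 inhibitor of cyclin-dependent kinases, had 1002, 870.6 and 1046 CPM at E16.5 and 676.4, 681.3 and 619.5 CPM at E14.5, a log2 change of 0.56 with groups that did not overlap. Cdkn1b, the p27 inhibitor, had a log2 change of 0.03, and Ccnd2, the D2 cyclin, of -0.76. The fetal program holds genes active in early embryonic growth, such as the Lin28 and Igf2bp families. Its median log2 change was -0.37, with 13 of 14 members below 0. With the 2-fold minimum 1 fell and 0 rose, against 1.61% and 1.46% of all genes. By edgeR's adjusted p alone 7 were lower and 0 higher, against 7.6% and 9.25% of all genes. In epithelium the list median was -0.46, and 3 members fell. The member that fell in fiber was Greb1, a growth regulation gene first known from estrogen response. It had 1.49, 0.998 and 1.87 CPM at E16.5 and 9.08, 7.66 and 7.503 CPM at E14.5. Lin28b, a blocker of let-7 maturation, had 48.5, 61.3 and 62.5 CPM at E16.5 and 82.1, 82.5 and 96.5 CPM at E14.5, a log2 change of -0.60.

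**Figure D2:**
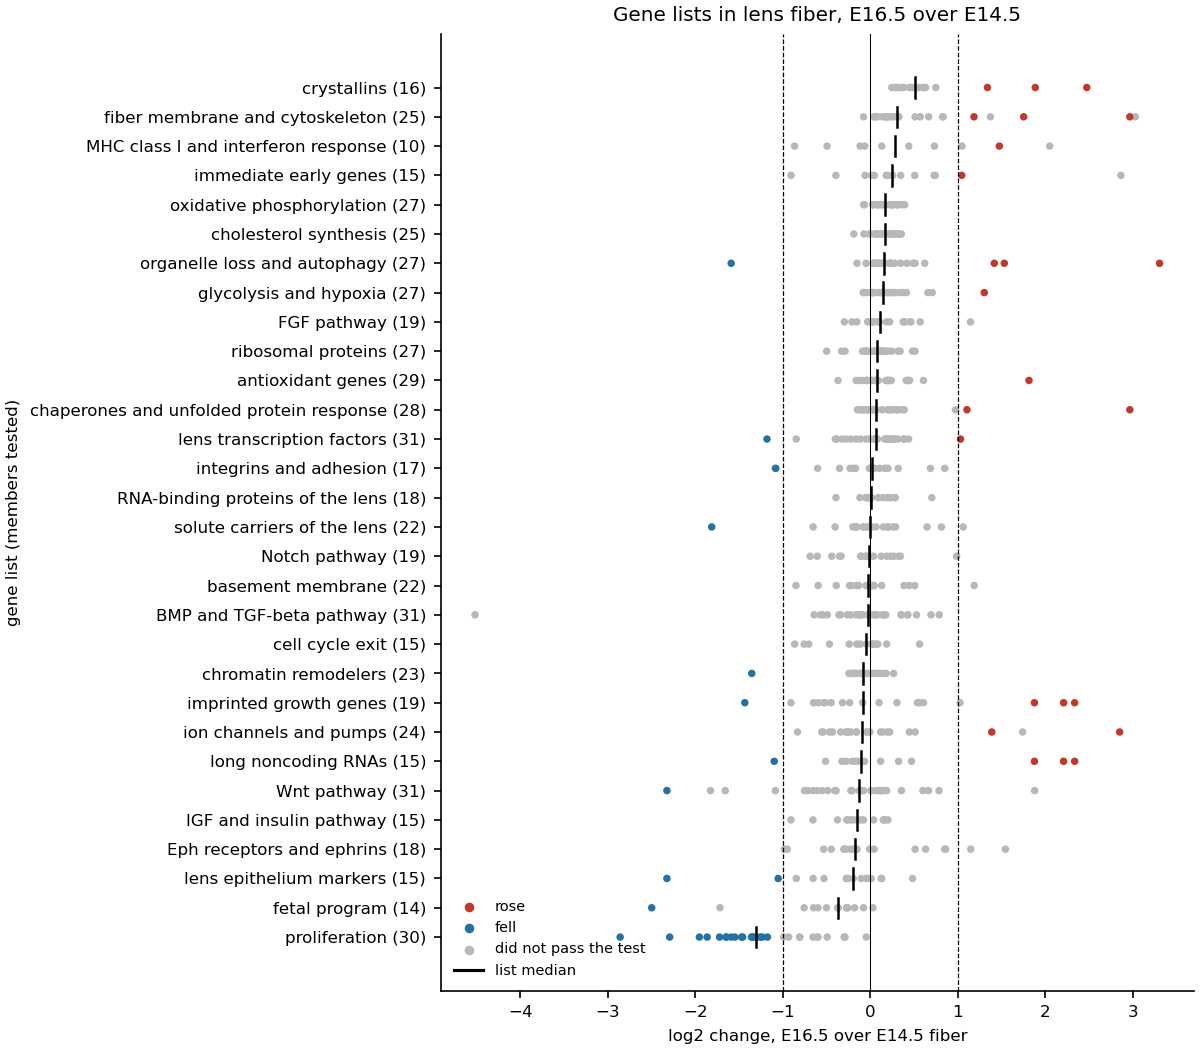
Log2 change of E16.5 over E14.5 fiber (x) for the members tested of each gene list (rows, ordered by median), 1 point per gene. Red points rose, blue points fell, grey points did not pass, and the black bar is the median; the crystallin median lies at 0.51 and the proliferation median at -1.30, against -0.01 over all genes.

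The 15 largest rises among genes with a mean of at least 20 CPM in the higher group, taken from 58 such genes, spanned log2 changes of 1.67 to 2.60. Fabp5, a fatty acid-binding protein, led with 106.5, 91.9 and 135.1 CPM at E16.5, against 17.8, 19.6 and 17.8 CPM at E14.5, a log2 change of 2.60 ± 0.20 (SE, edgeR adjusted p = 5.94e-09). Actn2, an alpha-actinin that crosslinks actin in muscle, had 73.8, 99.2 and 107.0 CPM at E16.5, against 17.2, 25.6 and 19.1 CPM at E14.5, a log2 change of 2.19. Hmox1, heme oxygenase 1, had 162.6, 208.0 and 218.8 CPM at E16.5, against 50.1, 65.2 and 53.1 CPM at E14.5, a log2 change of 1.81. Hmox1 was the only one of 29 antioxidant genes to pass, and the list median was 0.08. Rnf180, an E3 ubiquitin ligase, had 181.0, 221.2 and 215.7 CPM at E16.5, against 56.5, 72.4 and 65.8 CPM at E14.5, a log2 change of 1.67.

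Zfyve28, an endosomal protein with a FYVE domain, had 29.0, 35.0 and 30.8 CPM at E16.5 and 6.43, 8.22 and 4.97 CPM at E14.5. Stx11, a syntaxin of vesicle fusion, had 48.9, 47.0 and 51.2 CPM at E16.5 and 11.2, 20.5 and 11.1 CPM at E14.5. Ceacam2, a cell adhesion molecule, had 37.1, 33.9 and 41.3 CPM at E16.5 and 8.42, 9.35 and 9.27 CPM at E14.5. Their log2 changes were 2.28, 1.80 and 2.06, and in each the groups were apart. Cckbr, a cholecystokinin receptor, Kifc3, a kinesin that moves toward microtubule minus ends, Dcst1 and Tmprss11e, a transmembrane serine protease, rose by log2 changes of 1.77, 1.72, 1.70 and 1.67. All 15 genes had 3 E16.5 libraries above 3 E14.5 libraries, as had 180 of the 181 risen genes from which they were picked and 18.2% of all genes.

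The 3 long noncoding RNAs Meg3, Rian and Mirg of the imprinted Dlk1-Dio3 region on chromosome 12 rose together. The same 3 were all the risen members of both the long noncoding RNA list (3 of 15) and the imprinted list (3 of 19), against 1.46% of all genes. The other members did not follow them, and the list medians were -0.11 and -0.09. Meg3 had 66.1, 109.1 and 291.7 CPM in E16.5 replicates 1 to 3, against 33.6, 29.3 and 38.0 CPM at E14.5. Rian had 27.7, 55.6 and 154.5 CPM in E16.5 replicates 1 to 3, against 14.1, 14.02 and 19.1 CPM at E14.5. The groups did not overlap, and E16.5 replicate 3 was the highest library in both. The log2 changes were 2.21 ± 0.47 for Meg3 (SE, edgeR adjusted p = 0.00185) and 2.33 ± 0.49 for Rian (SE, edgeR adjusted p = 0.0017). Without E16.5 replicate 3 they were 1.38 and 1.42, with edgeR adjusted p of 0.0348 and 0.0349. Mirg, with 1.98, 2.66 and 6.26 CPM at E16.5 and 0.86, 0.65 and 1.43 CPM at E14.5, had a log2 change of 1.87, or 1.24 with an adjusted p of 0.0725 without that library. The 3 genes lie one after another on the plus strand (GRCm38, GENCODE M21), Meg3 at chr12:109541001-109571726, Rian at chr12:109603940-109661716 and Mirg at chr12:109729764-109749460.

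Other imprinted genes went the other way or did not pass. Mest, an imprinted hydrolase expressed from the paternal allele, had 27.8, 14.96 and 17.6 CPM at E16.5, against 58.6, 43.7 and 59.0 CPM at E14.5, and fell by 1.43 on the log2 scale. Igf2, the fetal insulin-like growth factor, had 1311, 1587 and 1066 CPM at E16.5 and 2545, 2474 and 2415 CPM at E14.5, a log2 change of -0.91 ± 0.18 (SE, edgeR adjusted p = 0.000789), short of 2-fold. H19, its neighbour, had a log2 change of -0.51 with an edgeR adjusted p of 0.0799. Miat, a long noncoding RNA of nuclear bodies, had 301.0, 285.1 and 329.4 CPM at E16.5, against 609.0, 642.1 and 708.3 CPM at E14.5, and fell by 1.10.

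**Figure D3:**
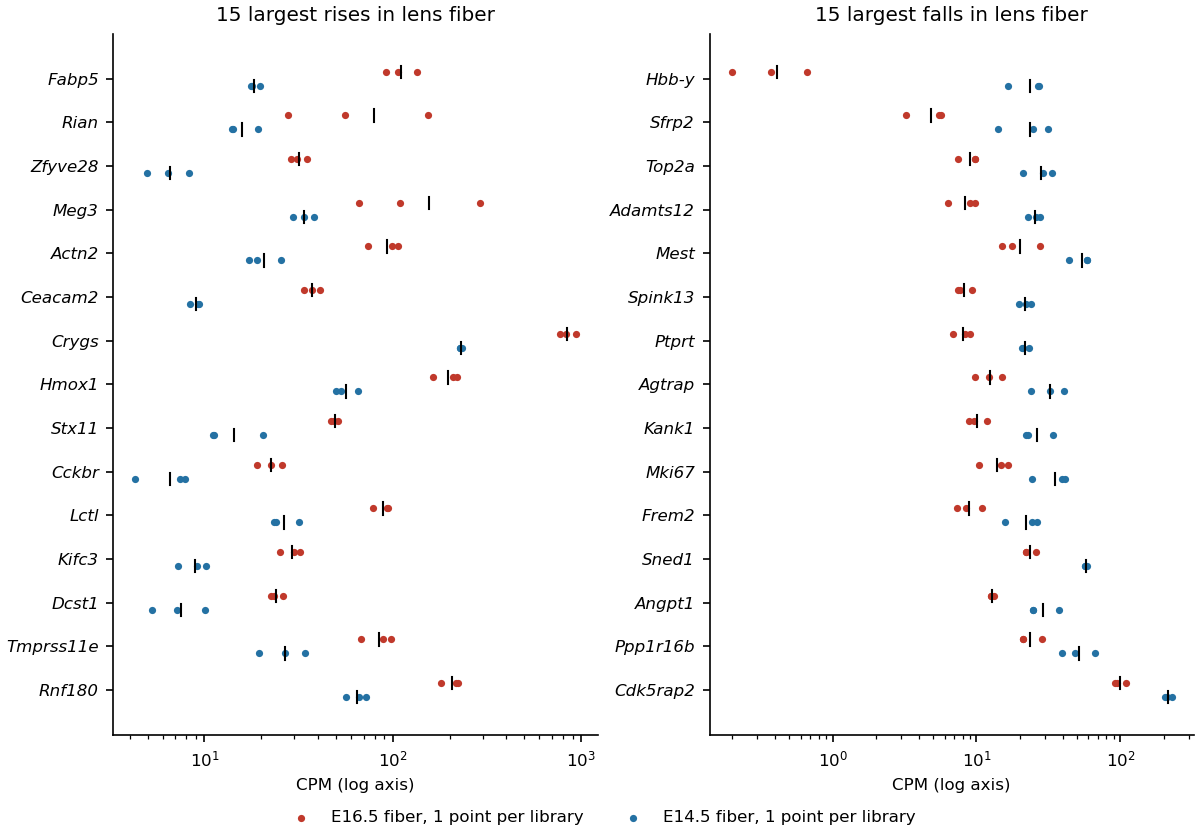
CPM (x, log axis) of the 15 largest rises and the 15 largest falls in E16.5 fiber (red, upper row of each gene) and E14.5 fiber (blue, lower row), 1 point per library with the mean as a black bar. The stages are apart in all 30 genes, which were picked for large changes past the test, and over all genes in 18.2% upward and 17.0% downward. Meg3 and Rian spread most at E16.5, with replicate 3 at 291.7 and 154.5 CPM.

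The 15 largest falls came from 19 eligible genes and spanned log2 changes of -1.12 to -5.77. Hbb-y, an embryonic beta-like globin of primitive red cells, had 0.20, 0.67 and 0.37 CPM at E16.5 (14 counts in 3 libraries) and 27.0, 16.54 and 27.3 CPM at E14.5 (908 counts). Hba-x, the embryonic alpha-like globin, fell by 3.25, and the summed level of 6 red cell genes was 3.57, 11.3 and 6.35 CPM at E16.5 and 37.6, 24.5 and 37.6 CPM at E14.5. Alas2, the red cell heme enzyme, did not pass, with 2.08, 6.73 and 3.36 CPM at E16.5 and 3.25, 2.34 and 2.28 CPM at E14.5. Both embryonic globins fell in epithelium too, by 6.12 for Hbb-y and 4.81 for Hba-x on the log2 scale.

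Among the other large falls, Adamts12, a secreted metalloprotease, had 9.82, 6.32 and 8.96 CPM at E16.5, against 27.7, 22.9 and 25.8 CPM at E14.5, a log2 change of -1.62. Sned1, a matrix glycoprotein, had 26.0, 22.2 and 21.9 CPM at E16.5, against 56.6, 57.0 and 58.8 CPM at E14.5, a log2 change of -1.30. Frem2, a basement membrane protein of the Fraser complex, fell by 1.32, the receptor phosphatase Ptprt by 1.42, the protease inhibitor Spink13 by 1.43, Kank1, a regulator of the cell cortex, by 1.37, and Agtrap, an angiotensin receptor-associated protein, by 1.38. Angpt1, a ligand of the receptor Tek, had 12.6, 12.5 and 13.3 CPM at E16.5 and 24.7, 24.6 and 37.2 CPM at E14.5, and fell by 1.17. Tek had 9.42, 11.1 and 11.7 CPM at E16.5 and 22.9, 20.9 and 21.5 CPM at E14.5, a log2 change of -1.02. The calls of 3 genes were lost without 1 library: without E14.5 replicate 3 Angpt1 had a log2 change of -0.94 and Ppp1r16b, a phosphatase 1 subunit that otherwise fell by 1.12, one of -0.89, and Tek had -0.94 without E16.5 replicate 1 and -0.98 without E14.5 replicate 1.

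Signalling lists held few or no genes that passed. None of 19 FGF, 19 Notch, 31 BMP and TGF-beta, 15 IGF and insulin, and 18 Eph and ephrin genes passed edgeR's test with the 2-fold minimum. The ephrins Efna1 and Efnb3 passed as lower without E16.5 replicate 1, Efnb3 also with scaling by total count, without E16.5 replicate 3 and without E14.5 replicate 3, where Efna4 passed as higher. Ephb1 passed as higher with DESeq2, and Igf2 as lower without E16.5 replicate 2 and with scaling by total count. These genes were named after their values were seen. Over all genes, 9.25% were higher and 7.6% lower by an adjusted p under 0.05 alone. By that rule there were 4 higher and 0 lower FGF genes, 1 and 2 Notch genes, 5 and 5 BMP and TGF-beta genes, 0 and 4 IGF genes, and 3 and 3 Eph genes. FGF drives fiber differentiation, and its receptor Fgfr2 had a log2 change of 0.22, while the response genes Etv5 and Spry2 had 0.38 and 0.39. Among 31 Wnt genes the only one to pass was Sfrp2, given above. Wnt7a had 110.4, 123.5 and 120.8 CPM at E16.5 and 61.9, 76.7 and 67.9 CPM at E14.5, a log2 change of 0.78 with groups apart, and the receptor Fzd3 had 322.3, 337.2 and 336.2 CPM at E16.5 and 510.9, 497.3 and 511.3 CPM at E14.5, one of -0.61. Egr1, an immediate early factor, was the only one of 15 such genes to pass, at 11.01, 28.0 and 23.999 CPM at E16.5 and 10.7, 12.5 and 7.67 CPM at E14.5. Its groups overlap, and its log2 change of 1.04 lost its call when any 1 of 4 of the 6 libraries was left out, with edgeR adjusted p of 0.0982 to 0.204.

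Metabolic lists moved by small amounts. Aldoc, a glycolytic aldolase, was the only one of 27 glycolysis and hypoxia genes to pass, with 66.0, 60.7 and 76.0 CPM at E16.5, against 27.7, 29.0 and 25.5 CPM at E14.5, a log2 change of 1.30. No gene passed among 27 of oxidative phosphorylation, 25 of cholesterol synthesis and 27 ribosomal protein genes, and by an adjusted p alone 6, 2 and 1 were higher and none lower, against 9.25% and 7.6% over all genes. Their medians of 0.17, 0.16 and 0.08 turned negative with scaling by total count (-0.06, -0.07 and -0.15). Of 22 solute carriers, Slc2a3, a glucose transporter, was near 0 in both groups (0, 0.25 and 0.09 CPM at E16.5, 0.40, 0.28 and 0.67 CPM at E14.5) and passed as lower with an edgeR adjusted p of 0.0493, which lay above 0.05 when any 1 of 4 of the 6 libraries, E16.5 replicate 1 among them, was left out. Its log2 change of -1.81 was -3.00 without E16.5 replicate 2. Among 28 chaperone genes Hspb1 and Hspb6 rose, both small heat shock proteins, against 1.46% of all genes. The list median was 0.07, or -0.16 with scaling by total count. Hspb1 is also counted among the risen fiber membrane and cytoskeleton genes above. Hspb6 had a log2 change of 1.10 that was 0.87, under 2-fold, with scaling by total count.

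Piezo2, a mechanically gated channel, had 30.0, 30.8 and 27.7 CPM at E16.5, against 10.4, 13.5 and 10.1 CPM at E14.5, a log2 change of 1.39 ± 0.21 (SE, edgeR adjusted p = 4.44e-05). Clic5, a chloride channel family protein, was low at 1.59, 1.75 and 0.84 CPM at E16.5 and 0.07, 0.28 and 0.25 CPM at E14.5. These were the 2 that rose among 24 channels and pumps, against 1.46% of all genes, and the list median was -0.10. Itga3, an integrin subunit, had 3.08, 1.91 and 2.24 CPM at E16.5 and 5.90, 3.64 and 5.31 CPM at E14.5, and was the only one of 17 integrin and adhesion genes to pass, with a log2 change of -1.08 that lost its call without E16.5 replicate 2 (-0.93) or E14.5 replicate 1 (-0.92). None of 22 basement membrane genes passed, with Col4a1, a collagen of the lens capsule, at a log2 change of -0.05. Nlrc5, an activator of MHC class I genes, had 178.2, 195.5 and 189.3 CPM at E16.5, against 51.4, 85.3 and 67.2 CPM at E14.5, a log2 change of 1.47. The MHC light chain B2m had 4.66, 3.82 and 4.76 CPM at E16.5 and 4.51, 3.55 and 3.88 CPM at E14.5, and no other member of the list of 10 passed.

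Markers of other cell types were summed in each library. The summed level of 12 endothelial genes was 49.2, 25.7 and 25.9 CPM in E16.5 replicates 1 to 3 and 36.5, 46.3 and 32.2 CPM at E14.5, and of 8 mural genes 55.4, 36.1 and 36.4 CPM at E16.5 and 53.6, 58.4 and 58.3 CPM at E14.5. Of the 12 endothelial genes 1 fell, Tek, given above, and the other 11 had log2 changes above 0, with a list median of 0.52. Tek alone made up 9.42, 11.1 and 11.7 CPM of the endothelial sums at E16.5 and 22.9, 20.9 and 21.5 CPM at E14.5. Without E16.5 replicate 1 none fell, 4 of 12 were above 0 and the median was -0.54. Ermap, an erythroid membrane protein, had 64.4, 0.50 and 0.28 CPM in E16.5 replicates 1 to 3 and 22.3, 28.5 and 13.5 CPM at E14.5. It was highest in E16.5 replicate 1, is not in the red cell list, and was named after its values were seen. The 6 red cell genes went the other way, with sums of 3.57, 11.3 and 6.35 CPM in E16.5 replicates 1 to 3. The 7 macrophage genes summed to 1.12 to 1.69 CPM at E16.5 and 1.43 to 1.87 CPM at E14.5, with C1qa at 0 in 2 E16.5 libraries and 1 E14.5 library. Mesenchyme markers summed to 77.2 to 81.1 CPM at E16.5 and 101.6 to 114.0 CPM at E14.5, and 1 of 8, the transcription factor Foxc1, rose (log2 change 1.25). Retina markers summed to 9.81 to 15.1 CPM at E16.5 and 10.7 to 12.1 CPM at E14.5, and pigment cell markers to 91.0 to 114.0 CPM at E16.5 and 86.5 to 94.5 CPM at E14.5, with none of 10 and none of 7 passing. Neither of the 2 cornea and surface ectoderm markers tested passed. The part of these cells in the changes above was not tested.

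The epithelium of the same stages shares no library with the fiber comparison. There, E16.5 was higher than E14.5 in 212 genes (1.71%) and lower in 102 (0.821%). Of the 181 genes that rose in fiber, 39 (21.5%, and 18.4% of the 212) also rose in epithelium, and of the 200 that fell, 19 (9.5%, and 18.6% of the 102) also fell. Cryab, Bfsp1, Lctl and Nlrc5 were among those that rose in both, with epithelial log2 changes of 1.17, 1.004, 2.11 and 2.49. Their epithelial means were 747.5, 42.1, 0.33 and 0.80 CPM at E14.5 and 1685, 84.5, 1.46 and 4.45 CPM at E16.5. Except for Cryab these lie far under the fiber means, for Bfsp1 2327 and 5286 CPM. The part of fiber RNA in the epithelial libraries was not tested. Sfrp2, Mest, Angpt1 (2.03 and 0.80 CPM in epithelium at E14.5 and E16.5) and the globins were among those that fell in both. Pcdh17, a protocadherin, Egr1 and Dbpht2 rose in fiber and fell in epithelium, and Robo3, an axon guidance receptor, fell in fiber and rose in epithelium. Dbpht2 and Robo3 were chosen after their values were seen.

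Whether the change differed between the tissues was tested directly, as the fiber change minus the epithelial change. It was higher in fiber for 99 genes (0.797%) and lower for 124 (0.998%), by the same thresholds, and for 99 and 125 without E16.5 fiber replicate 1, of which 88 and 96 were shared. Of the risen fiber genes 42 of 181 (23.2%) passed as higher, and of the fallen ones 50 of 200 (25%) passed as lower and 1, Sall4, as higher. The difference contains the fiber change by which these genes were picked, so the shared directions are no separate support. Pcdh17 had 15.6, 21.2 and 24.4 CPM in E16.5 fiber and 9.28, 8.22 and 8.18 CPM in E14.5 fiber, and its difference of log2 changes was 2.88 ± 0.29 (SE, edgeR adjusted p = 1.04e-06). Spns2, a transporter of sphingosine 1-phosphate, had 32.4, 40.7 and 36.9 CPM in E16.5 fiber and 10.2, 14.1 and 11.04 CPM in E14.5 fiber, with an epithelial log2 change of -0.50 and a difference of 2.15. Piezo2 had an epithelial log2 change of -0.97 and a difference of 2.35, and Fabp5 an epithelial change of 0.29 and a difference of 2.30.

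On the lower side the largest differences came from genes that rose in epithelium and not in fiber. Col4a3, a type IV collagen chain, had 7.64, 10.8 and 10.5 CPM in E16.5 fiber and 6.63, 8.78 and 7.08 CPM in E14.5 fiber, a log2 change of 0.38 that did not pass, against 3.72 in epithelium. Podn and Tinagl1, matrix proteins, had fiber log2 changes of -0.66 and -0.62 that did not pass and epithelial ones of 1.90 and 1.82. Bub1 fell by 2.86 on the log2 scale in fiber and had a log2 change of -0.71 in epithelium that did not reach 2-fold, with a difference of -2.15. Among the 30 proliferation genes the difference was lower in fiber for 5 (Bub1, Bub1b, Kif20a, Kif23 and Rrm2). In epithelium none of the 30 passed with the 2-fold minimum and all 30 had a log2 change below 0, with a median of -0.64.

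**Figure D4:**
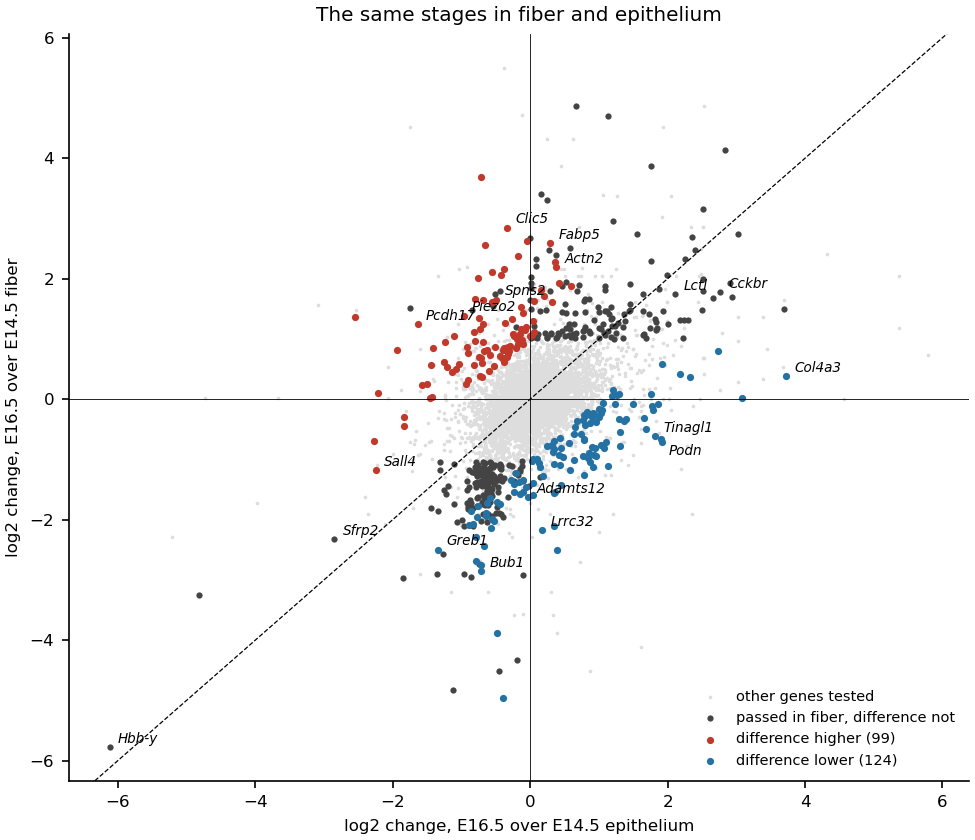
Log2 change of E16.5 over E14.5 in epithelium (x) against the same in fiber (y), 1 point per gene tested, with the line of equal change dashed. Red and blue points are the 99 and 124 genes whose change differed between the tissues by the interaction test, and dark points passed in fiber without such a difference; Fabp5 and Actn2 lie above the line, Col4a3 and Podn below it, and Hbb-y and Sfrp2 near it.

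At the later fiber stages many of the largest rises went further. E18.5 over E16.5, which shares the E16.5 libraries with the comparison above, was higher in 237 genes (1.91%) and lower in 90 (0.724%), and P0.5 over E18.5, which shares none, was higher in 37 (0.298%) and lower in 30 (0.241%). From the earliest stage to the latest, Crygs averaged 229.1 ± 3.76, 845.5 ± 82.0, 4822 and 6954 CPM (SD for E14.5 and E16.5, n = 3 each), and Fabp5 18.4, 111.2, 750.2 and 963.8 CPM. Crybb2 averaged 3.47, 19.3, 1004 and 1978 CPM over the 4 stages, and Clic5 0.20, 1.39, 47.8 and 58.6 CPM. Meg3 averaged 33.7, 155.6, 84.1 and 212.9 CPM, with no step after E16.5 that passed. All 15 largest rises had a higher mean at P0.5 than at E14.5. That comparison reuses the E14.5 libraries by which these genes were picked, so it is no separate support. By the test, 6 of the 15 rose again from E16.5 to E18.5. None of the 15 passed from E18.5 to P0.5.

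Of the 181 risen genes, 5 rose again at P0.5 over E18.5, which is 13.5% of the 37 that rose there, namely Cd44, Hrasls5, Igfn1, Kcna3 and Pcsk2os2, named after their values were seen. Igfn1, an immunoglobulin-domain protein of muscle, had 139.5, 170.3 and 109.9 CPM at E16.5 and 31.0, 73.4 and 52.5 CPM at E14.5. Egr1 fell in that step. Of the 200 fallen genes, 1 fell again, Adamts12, with means of 25.5, 8.37, 4.05 and 1.87 CPM over the 4 stages. All 15 largest falls had a lower mean at P0.5 than at E14.5, again with the E14.5 libraries by which they were picked. Of these 15, 5 fell again from E16.5 to E18.5, and Top2a averaged 27.9, 9.04, 7.14 and 6.22 CPM over the 4 stages. Miat, not among them, averaged 653.2, 305.2, 61.0 and 44.1 CPM.

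**Figure D5:**
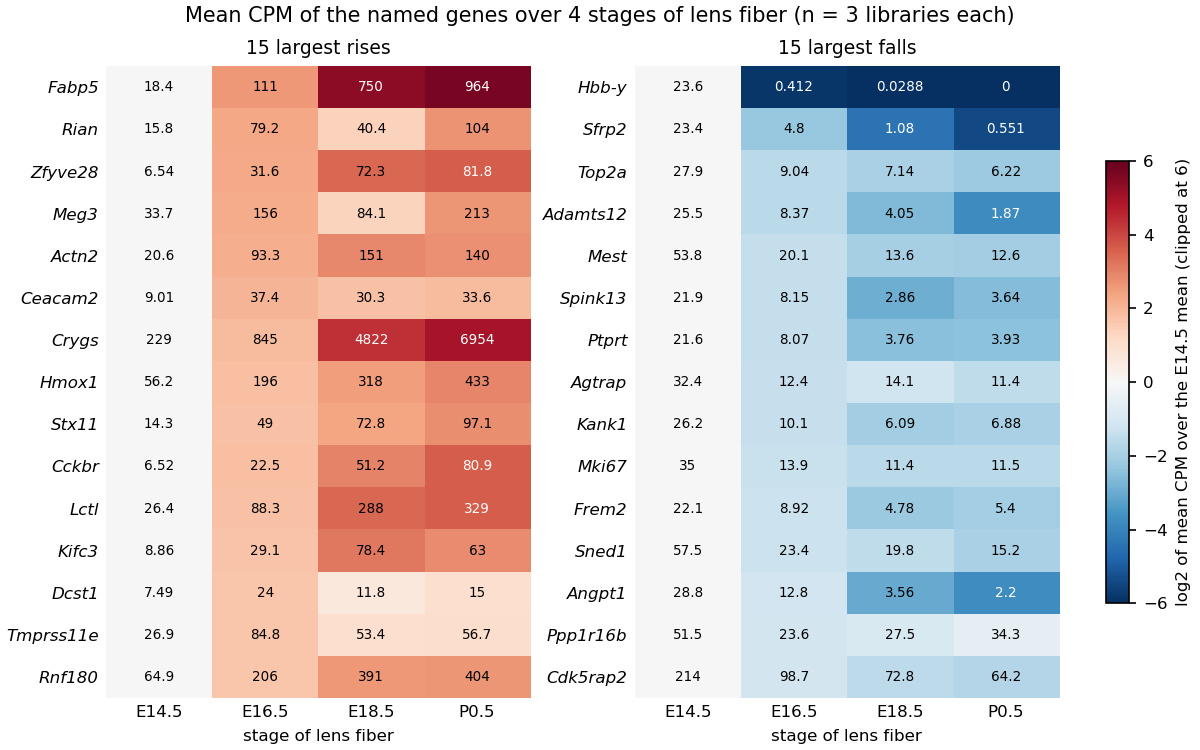
Mean CPM (numbers in the cells, 3 libraries each) of the 15 largest rises and the 15 largest falls at 4 stages of lens fiber from left to right, coloured by the log2 ratio of each mean to the E14.5 mean, clipped at 6. Fabp5 and Crygs reach 963.8 and 6954 CPM at P0.5, while Dcst1 and Tmprss11e are highest at E16.5 and Ppp1r16b is lowest there.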

How the data were processed

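Total RNA was sequenced from dissected lens fiber and epithelium of CD1 mice, 24 libraries in 8 groups of 3 replicates, 6 of which are compared here. Per the labels' protocols, Trizol was used for extraction and the stranded kit removes ribosomal RNA. The deposited table holds whole-number counts per gene, not normalized. The submitters' processing notes name Cuffdiff, TopHat2 2.0.13, Cufflinks 2.2.1, Trim Galore 0.4.1 and HTSeq 0.6.1, without saying what each did, and build mm10. No source used here says whether the counting used strand, so overlapping genes on opposite strands may share reads. The table lists 12611 gene symbols, and 12340 of them match a single GENCODE M21 gene (GRCm38, which is the mm10 assembly).

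From the counts, edgeR 4.0.16 (R 4.3.3) kept 12427 genes with filterByExpr (minimum count 10, minimum total 15), removed 184, scaled libraries with TMM, and fitted 8 group means over all 24 libraries (biological coefficient of variation 0.0821, with 16 residual degrees of freedom). Contrasts were tested with the two-sided quasi-likelihood F test and adjusted with Benjamini-Hochberg over all genes tested. SE is the absolute log2 change over the square root of F. An exact test of 3 against 3 libraries cannot go below p = 0.1, so none is given. The pipeline was tested on simulated data. Replicates differed by more than counting error (chi-square per degree of freedom 10.1 to 74.3), and counting error is not given separately.

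Named genes are the 15 largest rises and 15 largest falls that passed with a mean of at least 20 CPM in the higher group, predicted genes, histones and small noncoding RNAs left out, the 5 largest each way of the tissue difference, list members that passed and up to 4 others per list. The comparison, the 38 gene lists and the genes set side by side were chosen with earlier results of these data known. Lists are described by counts and medians, with no test. Alternatives were DESeq2 1.42.0, its size factors in edgeR, scaling by library size, the crystallins or Rn45s left out, no filter, no minimum change, the 6 fiber libraries alone, the replicate number as a block, and each replicate left out. Promoters and their motifs were read from a RefSeq table (GRCm38.p6).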

Additional observations from a re-analysis of the deposited data

Results flagged for a closer look

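The change from E14.5 to E16.5 differed between fiber and epithelium, by edgeR's interaction test with an adjusted p under 0.05 and a difference of at least 2-fold, in 31 genes taken up by the naming rule, and the values below are the fiber log2 change minus the epithelial one. Fabp5 (2.30), Zfyve28 (1.92), Actn2 (1.82), Crygs (1.29), Hmox1 (1.66), Kifc3 (1.51), Trex1 (1.67) and Clic5 (3.19) rose in fiber and did not pass in epithelium. Foxc1 (1.94), Piezo2 (2.35) and Spns2 (2.15) also rose in fiber, with epithelial log2 changes of -0.69, -0.97 and -0.50 that were short of 2-fold. Pcdh17 (2.88) and Egr1 (2.15) rose in fiber and fell in epithelium. Lcp1, an actin-bundling protein of blood cells, had a difference of 2.46 with a fiber log2 change of 1.66 that did not pass, and its 1.88, 0.33 and 0.47 CPM at E16.5 against 0.33, 0.19 and 0.25 CPM at E14.5 rest on replicate 1, without which the fiber change was 0.56.

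In the other direction, Adamts12 (-1.59), Ptprt (-1.18), Kank1 (-1.21), Cdh1 (-1.19), Itga3 (-1.43) and Tek (-1.05) fell in fiber and did not pass in epithelium. Lrrc32, a membrane anchor of TGF-beta, did so too (-2.34), with 0.50, 0.33 and 0.28 CPM at E16.5 and 1.46, 1.59 and 2.02 CPM at E14.5. The cell cycle genes Bub1 (-2.15), Bub1b (-1.18), Kif20a (-1.00458), Kif23 (-1.09) and Rrm2 (-1.50) fell in fiber and had epithelial log2 changes of -0.63 to -0.86 that were short of 2-fold. Greb1 (-1.16) fell in both tissues, more in fiber, and Sall4 (1.06) fell in both, more in epithelium. Col4a3 (-3.33), Podn (-2.56) and Tinagl1 (-2.44) rose in epithelium and did not pass in fiber. The adjusted p of the interaction ranged from 1.04e-06 for Pcdh17 and Spns2 to 0.049 for Kif20a. The cause of these differences was not tested.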

How the results depend on the processing

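The spread behind each test came from all 24 libraries. With the 6 fiber libraries alone 170 genes were higher and 169 lower, of which 165 and 163 were shared with the main result. Of the 200 fallen genes 134 stay under 5 CPM and rest on few counts. The 79 genes named by rank or as list members that passed were rerun one by one under other settings. These settings were the alternatives on all libraries that kept the 2-fold minimum, and each fiber replicate left out. The fit on the 6 fiber libraries alone was not among them. None of the 79 genes changed the sign of its fiber log2 change in these reruns. Other named list members were not rerun one by one, and small changes among them can turn sign with the scaling. For E16.5 over E14.5 fiber, scaling by library size alone gave 119 higher and 359 lower genes, of which 115 and 200 were shared with the main result, and it moved the median of all genes to -0.24. The tissue difference had 333 lower genes under that scaling. Without the 2-fold minimum, 1150 genes were higher and 944 lower in fiber, 513 and 517 in the tissue difference, 1340 and 1487 in epithelium, and 353 and 416 in fiber of P0.5 over E18.5. The other settings on all libraries stayed within 1.5 times of the main counts. Leaving out each replicate in turn gave 148 to 192 higher and 156 to 220 lower genes in fiber, 82 to 118 and 87 to 147 in the tissue difference, 161 to 260 and 86 to 149 in epithelium, and 25 to 45 and 20 to 43 in fiber of P0.5 over E18.5. Same-numbered libraries of E16.5 and E14.5 fiber had deviations from their group means that correlated at -0.02, -0.05 and 0.13. Same-numbered fiber and epithelium libraries correlated at 0.03, 0.18 and 0.06 at E16.5, and at 0.18, -0.06 and 0.01 at E14.5. Those with different numbers ranged from -0.10 to 0.04 at E16.5 and from -0.13 to 0.12 at E14.5. The sources used here do not say if same-numbered fiber and epithelium come from the same animals. The numbers were not taken to pair the samples in the main fit. With the replicate number as a block, 179 genes were higher and 201 lower in fiber, with 177 and 196 shared, and 94 and 113 in the tissue difference, and of 79 named genes only Egr1 lost its call (log2 change 0.998). Between 74 and 79 of the 79 named genes kept their side of the threshold under each setting in which they were rerun. With the crystallins left out, all 76 that could be tested did. The cause of these differences was not tested.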
